A study of Mus musculus with 14 samples.

Results

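The genes described here are 10 that mammalian phagocytes use to recognise and take up apoptotic cells: Axl, Mertk, Gas6, Pros1, Mfge8, Timd4, Stab1, Elmo1, Dock2 and Cd36. The rule is a list of symbols with no threshold on a value, drawn up with earlier results of these data known, and all 10 were found among the 35735 genes of the deposited table of transcript abundances (TPM). RNA came from microglia sorted out of single mouse retinas (CD11b-positive, Ly6c-negative, Fcrls-positive; 100 to 600 cells a retina) and was made into 14 SMART-Seq2 libraries, a full-length method that starts from very little RNA. All mice were 12 weeks old per the labels, and the groups were APOE E4/E4 with a microbead injection (n = 3), APOE E3/E3 with a microbead injection (n = 3), APOE E4/E4 with a sham injection (n = 4) and APOE E3/E3 with a sham injection (n = 4), called APOE4 microbead, APOE3 microbead, APOE4 sham and APOE3 sham below. Microbeads placed in the front of the eye slow the outflow of fluid and are used as a model of glaucoma, and the design asks how retinal microglia respond to them in each genotype. The labels do not give the time between injection and collection, nor whether the retinas came from separate animals, so the p-values measure the spread between these libraries.

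Dying cells expose phosphatidylserine on their surface, and phagocytes read it either directly or through bridging proteins. Axl and Mertk belong, with Tyro3, to the TAM family of receptor tyrosine kinases; their ligands, growth arrest-specific 6 (Gas6) and protein S (Pros1), bind phosphatidylserine with one end and a TAM receptor with the other. Mfge8 bridges phosphatidylserine to integrins, Timd4 and Stab1 encode receptors that bind it directly, Cd36 is a scavenger receptor for apoptotic cells and oxidised lipids, and Elmo1 and Dock proteins switch on the GTPase Rac, which moves actin around the cell to be swallowed. In the retina this machinery is best known from the pigment epithelium, where Mertk is needed to take up shed photoreceptor outer segments; in mouse macrophages Axl is the TAM receptor that inflammatory signals and type I interferon raise, while Mertk is the one of resting cells.

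The promoters of Axl, of its sister receptor Mertk and of Elmo1 are shown because Axl and Elmo1 were the members that passed the test below and Mertk the receptor that did not. Each sequence is the 250 bases before the RefSeq start of the gene (GRCm38.p6), 5′ to 3′ on the gene's own strand. Capitals mark matches, on either strand, to a GC box (GGGCGG) or to the core of PU.1 sites (GAGGAA), PU.1 being a transcription factor of myeloid cells.

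Axl, chr7:25788734-25788983, minus strand: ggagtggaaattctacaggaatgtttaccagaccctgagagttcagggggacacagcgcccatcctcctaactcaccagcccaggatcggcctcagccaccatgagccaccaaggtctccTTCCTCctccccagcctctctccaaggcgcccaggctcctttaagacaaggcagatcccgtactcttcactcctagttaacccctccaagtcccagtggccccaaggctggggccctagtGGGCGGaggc
Mertk, chr2:128698665-128698914, plus strand: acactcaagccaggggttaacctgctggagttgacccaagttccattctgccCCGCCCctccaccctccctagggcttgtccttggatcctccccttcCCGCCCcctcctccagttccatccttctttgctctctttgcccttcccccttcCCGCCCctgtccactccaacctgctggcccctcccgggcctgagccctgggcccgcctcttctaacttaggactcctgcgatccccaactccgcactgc
Elmo1, chr13:20090257-20090506, plus strand: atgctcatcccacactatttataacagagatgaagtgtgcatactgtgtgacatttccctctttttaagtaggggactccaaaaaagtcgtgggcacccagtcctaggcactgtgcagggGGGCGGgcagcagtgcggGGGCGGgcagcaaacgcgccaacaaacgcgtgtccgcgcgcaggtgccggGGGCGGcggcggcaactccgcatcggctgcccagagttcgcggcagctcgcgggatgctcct

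The Axl window held 1 PU.1 core, 130 to 125 bases before the start on the minus strand, and 1 GC box 10 to 5 bases before it. The Mertk window held 3 GC boxes on the minus strand, the first base of each lying 198, 152 and 99 bases before the start, and the first Elmo1 window held 3 on the plus strand, at 130, 112 and 62 bases. These motifs are common: of 32851 RefSeq mouse promoter windows of this length, 32.7% held the GC box and 23.3% the PU.1 core. No window of a member matched the interferon-stimulated response element searched as GAAANNGAAA (2.98% of all windows did) or the AP-1 site TGANTCA (6.75%). The gamma-activated sequence TTCNNNGAA, in 7.02% of all windows, was found in those of Pros1 and of a second, downstream Elmo1 start. All 5 motifs were searched on both strands, none of the matches printed overlaps another, and a match or its lack describes only the letters in this window. Bases G and C made up 60.0% of the Axl window, 63.6% of the Mertk window and 61.6% of the Elmo1 window, against a median of 52.4% over all windows.

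Libraries held 453429 to 730134 estimated reads on transcripts, which sets the precision of each value. CPM here stands for a gene's reads scaled to a common library size by trimmed means (TMM), the scale of the tests, and TPM is also divided by transcript length. All 12 microglial markers, Tmem119, P2ry12 and Fcrls among them, had reads in every library, and their summed level was 14722 to 17272 CPM in APOE4 microbead, 7135 to 12098 CPM in APOE3 microbead, 14839 to 17836 CPM in APOE4 sham and 14916 to 20095 CPM in APOE3 sham libraries. The 15 monocyte markers summed to 462 to 1420 CPM in APOE4 microbead, 1385 to 7002 CPM in APOE3 microbead, 243 to 395 CPM in APOE4 sham and 320 to 402 CPM in APOE3 sham libraries; APOE3 microbead libraries 1 and 2 had 5786 and 7002 CPM. All 15 had reads in some library, most of them from Lyz2, Fn1 had 1238 reads, and Ly6c2, the gene of the antigen gated out, had 18 reads over all libraries and none in 6. Sums of rod photoreceptor markers (174 to 2132 CPM) and of immediate-early genes that dissociation raises (434 to 5882 CPM) overlapped between all 4 groups.

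In APOE3 mice Axl rose 5.08-fold in mean CPM after microbeads. Elmo1 fell, a call lost in 14 of 28 alternative fits. Mertk, the ligand Gas6 and Dock2 did not pass the test in either direction. In APOE4 mice no member passed the test, and mean Axl lay between the means of the APOE3 groups in both treatments: above APOE3 sham already in sham retinas, and below APOE3 microbead after beads. Pros1 was the other member whose groups did not overlap in any of the 4 comparisons of groups, with APOE3 sham highest and APOE3 microbead lowest by mean CPM, but none of its differences passed the test. Of the 10 members, 8 passed the filter on low counts and were tested; Timd4, with 5 reads over all 14 libraries, and Cd36, with 26, did not.

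Set against all genes, members were called in 1 of the 5 comparisons. In APOE3, microbead against sham, 2 of the 8 tested members were called (1 higher, 1 lower), where 5.15% of all 7605 genes were called, 3.54% higher and 1.62% lower. No member was called by edgeR in APOE4, microbead against sham, where 0.197% of all genes were called. None was called in the interaction (0.092%), in APOE4 against APOE3 after microbeads (0.579%) or in shams (0.0131%). At an unadjusted edgeR p under 0.05 stood 1 member and 494 of all 7605 genes in APOE4. The interaction had 3 members and 621 genes there, the genotypes after microbeads 3 members and 741 genes, and shams 2 members and 335 genes. DESeq2 and limma-voom called 0 members in those 4 comparisons too, except that DESeq2 called Axl and Pros1 in the interaction. There DESeq2 adjusted over 1407 genes only and called 68 of them. Ranges of CPM did not overlap for 2 tested members in APOE3 (13.1% of all genes did not), 2 in APOE4 (9.11%), 4 between genotypes after microbeads (14.5%) and 2 between genotypes in shams (3.54%). The median log2 difference over the tested members was 0.22 in APOE4 and -0.19 in APOE3, against -0.00436 in APOE4 and -0.0153 in APOE3 over all genes; these comparisons share libraries, so their values are not independent.

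**Figure D1:**
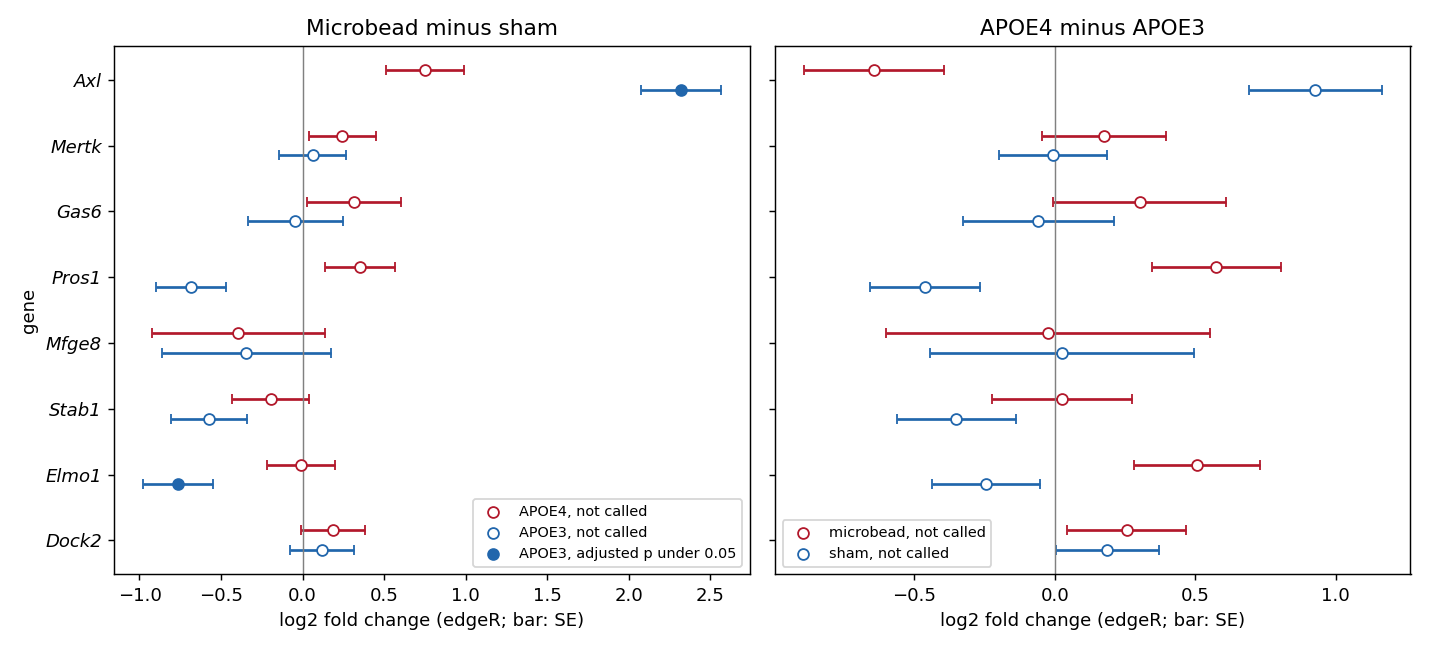
Log2 fold change with its SE (horizontal axes, edgeR) of the 8 tested members: microbead minus sham in APOE4 and APOE3 (left) and APOE4 minus APOE3 in microbead and sham libraries (right). Filled points passed an adjusted p of 0.05, which are Axl at 2.32 and Elmo1 at -0.76 in APOE3.

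**Figure D2:**
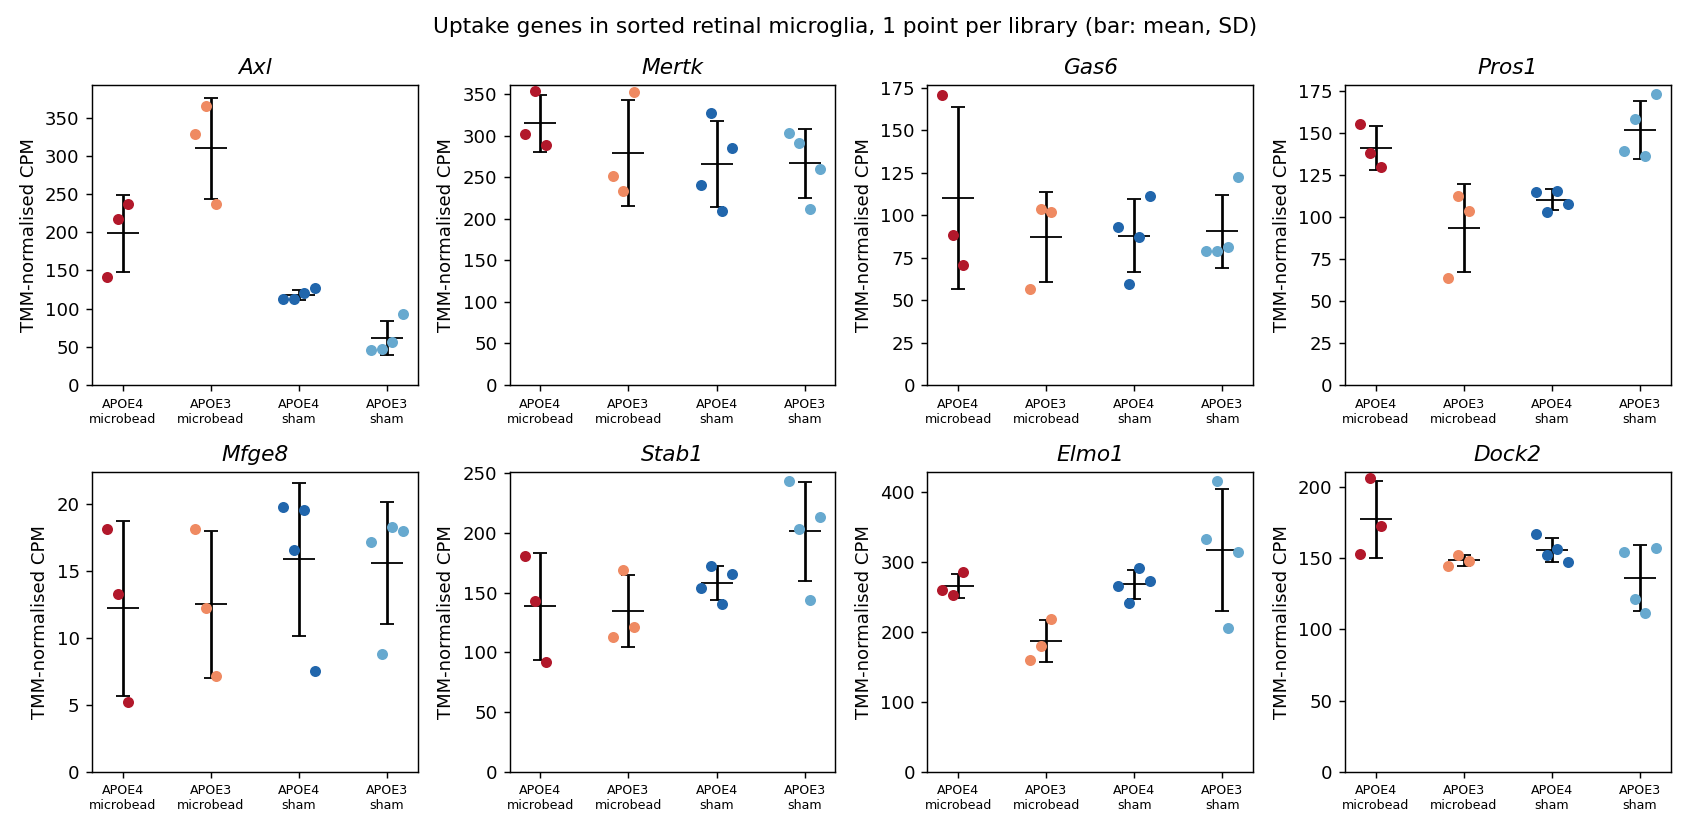
Level of the 8 tested members in TMM-normalised CPM (vertical axes, each from 0) in the 4 groups, 1 point per library, with the mean and SD as bars. Axl lies at 237 to 365 CPM in the 3 APOE3 microbead libraries and at 46.4 to 93.6 CPM in the 4 APOE3 sham libraries, while Mertk overlaps between all groups.

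Axl (ENSMUSG00000002602, mm10 chr7:25757273-25788705, minus strand) encodes a TAM receptor that binds Gas6. It was at 141, 218 and 237 CPM in APOE4 microbead libraries and at 328, 365 and 237 CPM in APOE3 microbead libraries. In shams it was at 113, 113, 121 and 126 CPM in APOE4 and 46.4, 47.4, 56.9 and 93.6 CPM in APOE3 libraries. Every microbead library was above every sham library, and within the shams every APOE4 library was above every APOE3 library. The nearest libraries of the microbead groups were 236.9 CPM in APOE4 and 237.1 CPM in APOE3, so those ranges only just failed to meet. Means were 198 ± 50.8 CPM in APOE4 microbead, 310.2 ± 65.9 CPM in APOE3 microbead (SD, n = 3 each), 118 ± 6.65 CPM in APOE4 sham and 61.1 ± 22.2 CPM in APOE3 sham libraries (SD, n = 4 each).

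In APOE3, microbead against sham, Axl differed by a log2 fold change of 2.32 ± 0.24 (SE; edgeR quasi-likelihood test, Benjamini-Hochberg adjusted p = 6.95e-07), the third smallest p-value of 7605 genes. In APOE4 the same difference was 0.75 ± 0.24 (adjusted p = 0.310), which did not pass 0.05 although the CPM ranges did not overlap. On the TPM scale they did overlap, with 7.61, 17.97 and 19.1 TPM in APOE4 microbead and 7.76, 7.65, 11.5 and 12.9 TPM in APOE4 sham libraries. The microbead effect in APOE4 minus that in APOE3 was -1.57 ± 0.34 (adjusted p = 0.0603), which does not pass 0.05 here. It does under DESeq2 (adjusted p = 0.00227), which adjusted over 1407 genes in this comparison and called 68 of them. Over the alternatives for this difference the adjusted p ran between 0.00227 and 1. APOE4 against APOE3 gave -0.64 ± 0.25 after microbeads (adjusted p = 0.340) and 0.93 ± 0.24 in shams (adjusted p = 0.536), with 1 gene of 7605 called in that sham comparison. In bulk RNA of this kind, fewer cells of a type and less RNA per cell cannot be told apart.

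Axl was set beside marker lists of other cells and states. Its order followed the monocyte list in APOE3 microbead but not in APOE4 microbead libraries. Interferon-response genes (25 listed) summed to 819, 1559 and 2194 CPM in APOE4 microbead libraries and 1568 and 1546 CPM in APOE3 microbead libraries 1 and 2, library 3 lying nearer the shams, against 462 to 722 CPM in APOE4 sham and 278 to 573 CPM in APOE3 sham libraries. Within each microbead group the library lowest in interferon genes was also the one lowest in Axl, and in APOE3 shams both orders ran alike. In APOE4 shams, libraries 3 and 4 were lowest in interferon genes (462 and 470 CPM) and highest in Axl (121 and 126 CPM). By group mean APOE4 microbead was higher than APOE3 microbead in interferon genes (1524 against 1314 CPM) and lower in Axl (198 against 310 CPM). The 2 APOE3 microbead libraries highest in Axl were the same ones that were richest in monocyte markers. Without both of them Axl was still called in APOE3, at 1.93 (adjusted p = 0.00113), with the lone remaining library assumed to vary like the other groups. In APOE4 microbead libraries 1, 2 and 3, which had 141, 218 and 237 CPM of Axl, monocyte markers summed to 545, 1420 and 462 CPM, against 243 to 395 CPM in APOE4 sham libraries. Once the monocyte sum entered the fit as a covariate, the APOE3 difference was 1.67 (adjusted p = 0.701); that fit called 0 of 7605 genes in this comparison, and the list does not overlap between these groups, so its part and that of the beads cannot be told apart. The part of the interferon genes in the Axl result was not tested.

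**Figure D3:**
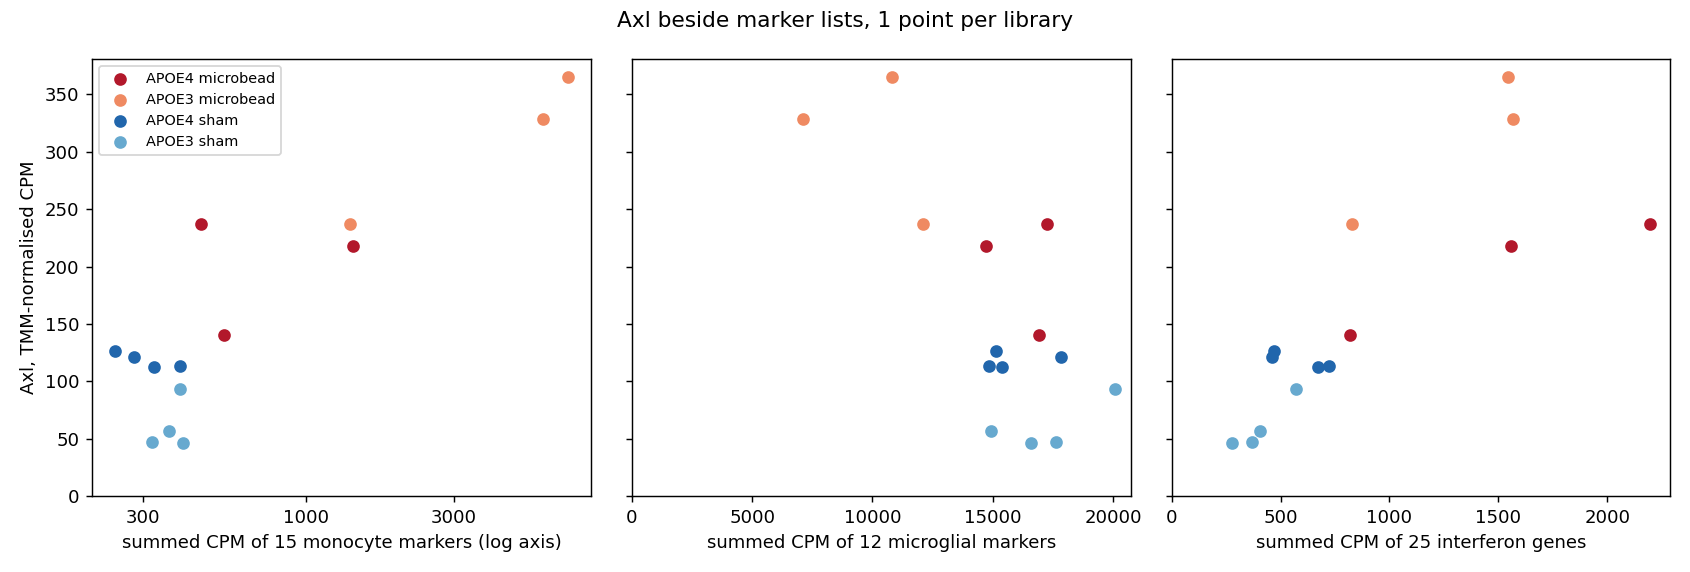
Axl in TMM-normalised CPM (vertical axis) against the summed CPM of 15 monocyte markers (log axis), 12 microglial markers and 25 interferon-response genes, 1 point per library. The APOE3 microbead libraries at 328 and 365 CPM of Axl stand at 5786 and 7002 CPM of monocyte markers and at 7135 and 10819 CPM of microglial markers.

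Mertk (ENSMUSG00000014361, chr2:128698956-128802894, plus strand), the TAM receptor of resting phagocytes, was at 302, 354 and 289 CPM in APOE4 microbead and 251, 234 and 353 CPM in APOE3 microbead libraries. Sham libraries were at 241, 328, 209.9 and 285 CPM in APOE4 and 304, 292, 211 and 261 CPM in APOE3. All 4 groups overlapped. Microbead against sham differed by 0.24 ± 0.21 in APOE4 (adjusted p = 0.924) and by 0.06 ± 0.21 in APOE3 (adjusted p = 0.956), log2 fold changes that did not pass the test. Pigment epithelium, which uses Mertk, was near absent: Rpe65, its retinoid isomerase gene, had 2 reads in all, and the 10 markers of that layer summed to 10.3 to 40.7 CPM over the libraries. The 12 markers of Muller glia and astrocytes, Slc1a3 among them, summed to 167 to 269 CPM over the libraries. Most of their reads over all libraries were of Glul (1026), Slc1a3 (321) and Vim (278). Kcnj10 had 57 reads and every other marker of the list at most 10, Aqp4 having 9 and Gfap 1. The part of other cells in the Mertk values was not tested. Tyro3, the third TAM receptor and not a member, had 13 reads over all libraries.

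The balance of the TAM receptors followed Axl. Per length, the ratio of Axl TPM to Mertk TPM was 0.487, 0.839 and 0.991 in APOE4 microbead libraries, 1.72, 1.78 and 0.681 in APOE3 microbead libraries, 0.486, 0.354, 0.616 and 0.466 in APOE4 sham libraries and 0.235, 0.167, 0.383 and 0.371 in APOE3 sham libraries. Mertk was thus the higher TAM receptor in 12 of 14 libraries, and Axl exceeded it in 2 of the 3 APOE3 microbead libraries. The exception among the APOE3 microbead libraries, the third, is the one lowest in both monocyte markers and interferon genes of that group. Ratios in APOE4 microbead overlapped those in APOE4 sham libraries, and APOE3 microbead did not overlap APOE3 sham; these ratios were not tested.

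**Figure D4:**
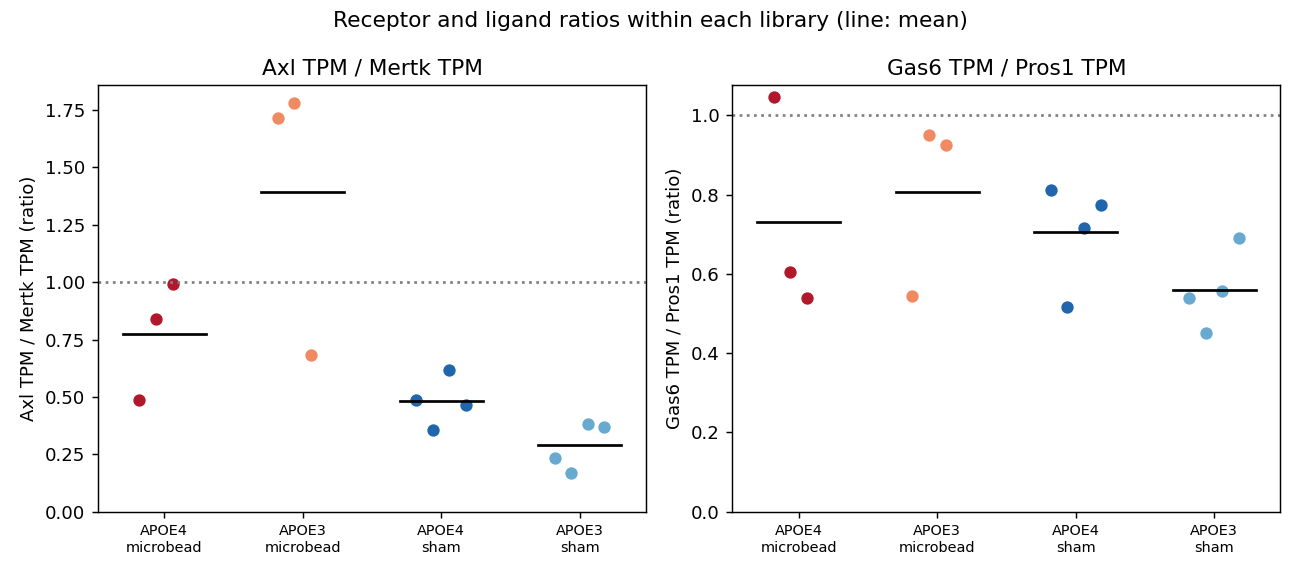
Ratio of Axl TPM to Mertk TPM (left) and of Gas6 TPM to Pros1 TPM (right), 1 point per library and a line at each group mean; the dotted line marks a ratio of 1. Axl exceeds Mertk in APOE3 microbead libraries 1 and 2, and Gas6 exceeds Pros1 in a single library, of the APOE4 microbead group.

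Among the TAM ligands, Gas6 (ENSMUSG00000031451, chr8:13465374-13494490, minus strand) was at 171, 88.1 and 70.9 CPM in APOE4 microbead and 56.6, 104 and 102 CPM in APOE3 microbead libraries. Sham libraries were at 93.3, 59.6, 87.2 and 111 CPM in APOE4 and 79.0, 79.1, 81.3 and 122 CPM in APOE3. The groups overlapped, and single libraries set their upper ends, library 1 in APOE4 microbead and library 4 in APOE3 sham. Log2 differences between microbead and sham were 0.32 ± 0.29 in APOE4 (adjusted p = 0.935) and -0.04 ± 0.29 in APOE3 (adjusted p = 0.984).

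Pros1 (ENSMUSG00000022912, chr16:62854307-62929346, plus strand), the gene of protein S, a plasma anticoagulant as well as a TAM ligand, was at 155, 138 and 129.7 CPM in APOE4 microbead and 63.4, 112 and 103 CPM in APOE3 microbead libraries. In shams it was at 115, 103, 116 and 108 CPM in APOE4 and 139, 158, 136 and 173 CPM in APOE3 libraries. After microbeads every APOE4 library was above every APOE4 sham library, whereas every APOE3 library was below every APOE3 sham library; in shams all APOE4 libraries were below all APOE3 ones, and after microbeads all were above. Means were 141 ± 12.9 CPM in APOE4 microbead, 93.1 ± 26.1 CPM in APOE3 microbead (SD, n = 3 each), 110.2 ± 6.18 CPM in APOE4 sham and 152 ± 17.2 CPM in APOE3 sham libraries (SD, n = 4 each). The log2 difference between microbead and sham was 0.35 ± 0.21 in APOE4 (adjusted p = 0.867) and -0.69 ± 0.21 in APOE3 (adjusted p = 0.0597), and neither passed edgeR's threshold. Their difference was 1.04 ± 0.30 (adjusted p = 0.212). DESeq2, which adjusted over 1407 genes there, gave an adjusted p of 0.0241, the lowest of the alternatives, whose highest was 1. On the TPM scale the groups overlapped, with 14.4, 14.9 and 14.8 TPM in APOE4 microbead and 7.19, 20.1 and 11.1 TPM in APOE3 microbead libraries. Sham libraries had 12.7 to 23.5 TPM in APOE4 and 12.8 to 33.7 TPM in APOE3. Mean TPM was lower after microbeads in both genotypes, 14.7 against 16.9 TPM in APOE4 and 12.8 against 19.1 TPM in APOE3.

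Pros1 was the higher ligand per length in 13 of 14 libraries. The ratio of Gas6 TPM to Pros1 TPM ran between 0.539 and 1.05 in APOE4 microbead, between 0.545 and 0.949 in APOE3 microbead, between 0.516 and 0.813 in APOE4 sham and between 0.451 and 0.691 in APOE3 sham libraries, and all groups overlapped. The microglial marker sum was, like Pros1, lowest by group mean in APOE3 microbead libraries; its part in the Pros1 values was not tested.

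The remaining bridging and receptor genes were low or did not separate. Mfge8 (ENSMUSG00000030605, chr7:79133768-79149060, minus strand), the bridge to integrins, had 118 reads over all libraries and lay at 18.1, 13.3 and 5.19 CPM in APOE4 microbead and 18.1, 12.2 and 7.13 CPM in APOE3 microbead libraries. Sham libraries were at 19.7, 16.6, 19.6 and 7.55 CPM in APOE4 and 17.2, 8.79, 18.3 and 18.01 CPM in APOE3. With 3 to 15 reads a library its log2 differences were loosely fixed: microbead against sham gave -0.39 ± 0.53 in APOE4 (adjusted p = 0.961) and -0.34 ± 0.52 in APOE3 (adjusted p = 0.863).

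Stab1 (ENSMUSG00000042286, chr14:31139013-31168641, minus strand), a large scavenger receptor of tissue macrophages and some endothelia, was at 181, 143 and 91.6 CPM in APOE4 microbead and 113, 169 and 121 CPM in APOE3 microbead libraries. Sham libraries were at 154, 172, 141 and 166 CPM in APOE4 and 244, 204, 144 and 214 CPM in APOE3. The lowest APOE3 sham library fell within the range of the APOE3 microbead libraries. The log2 difference between microbead and sham was -0.20 ± 0.23 in APOE4 (adjusted p = 0.955) and -0.57 ± 0.23 in APOE3 (adjusted p = 0.200). Markers of border macrophages, another home of Stab1 (11 listed, all with reads), summed to 51.9 to 145 CPM in APOE4 microbead, 125 to 231 CPM in APOE3 microbead, 75.5 to 116 CPM in APOE4 sham and 116 to 136 CPM in APOE3 sham libraries; their part in the Stab1 values was not tested.

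Timd4 (ENSMUSG00000055546, chr11:46810800-46844332, plus strand) and Cd36 (ENSMUSG00000002944, chr5:17781690-17888801, minus strand) were at the limit of detection. Timd4, a phosphatidylserine receptor of resident tissue macrophages, had 1 read in each of 3 libraries and 2 in another: APOE4 microbead library 1, APOE4 sham library 2 and APOE3 sham libraries 2 and 4. The other 10 libraries had no read. There 3 reads would have stood at 3.34 to 6.79 CPM, and lower levels can give no read at this depth. Cd36 had 2, 0 and 4 reads in APOE4 microbead and 3, 5 and 0 reads in APOE3 microbead libraries, against 0, 3, 1 and 0 reads in APOE4 sham and 2, 1, 1 and 4 reads in APOE3 sham libraries. No fold change is given for either gene, and these limits cover counting error only.

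Elmo1 (ENSMUSG00000041112, chr13:20090596-20608353, plus strand), the scaffold that holds Dock proteins at the membrane, was at 260, 253 and 285 CPM in APOE4 microbead and 161, 180.4 and 219 CPM in APOE3 microbead libraries. Its sham levels were 266, 242, 292 and 274 CPM in APOE4 and 333, 416, 205 and 315 CPM in APOE3. The APOE3 microbead libraries were the lowest group, but the third APOE3 sham library lay inside their range, and all APOE4 microbead libraries were above all APOE3 microbead libraries. Means were 266 ± 17.2 CPM in APOE4 microbead, 187 ± 29.8 CPM in APOE3 microbead (SD, n = 3 each), 268 ± 20.7 CPM in APOE4 sham and 317 ± 86.9 CPM in APOE3 sham libraries (SD, n = 4 each). In APOE3, Elmo1 fell, with a log2 fold change of -0.76 ± 0.21 (adjusted p = 0.0296), whereas the difference in APOE4 was -0.01 ± 0.21 (adjusted p = 0.998). The difference between these effects, 0.75 ± 0.30, did not pass (adjusted p = 0.441), nor did APOE4 against APOE3 after microbeads, 0.51 ± 0.23 (adjusted p = 0.438). The APOE3 call is fragile: it was lost in 14 of 28 alternatives, among them leaving out APOE3 microbead library 1 (adjusted p = 0.126) or 2 (0.112) or APOE3 sham library 1 (0.0661) or 2 (0.134), and adding the replicate number as a block (0.0889). Without both libraries rich in monocyte markers it was -0.54 (adjusted p = 0.677), with the monocyte covariate -0.28 (adjusted p = 0.996), and over all 28 the adjusted p ran between 0.00621 and 0.996. Microglial markers summed to 7135, 10819 and 12098 CPM in APOE3 microbead libraries 1, 2 and 3, the order of their Elmo1 values, against 14916 to 20095 CPM in APOE3 sham libraries, and their part in the Elmo1 result was not tested.

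Dock2 (ENSMUSG00000020143, chr11:34226815-34783892, minus strand), the Rac activator of blood-derived cells, was at 153, 206 and 173 CPM in APOE4 microbead and 145, 153 and 148 CPM in APOE3 microbead libraries. Its sham levels were 167, 152, 157 and 147 CPM in APOE4 and 155, 121, 112 and 157 CPM in APOE3. The APOE4 microbead libraries were just above the APOE3 microbead ones, with 152.9 CPM next to 152.6 CPM, and other pairs of groups overlapped. Microbead against sham differed by 0.19 ± 0.20 in APOE4 (adjusted p = 0.945) and 0.12 ± 0.20 in APOE3 (adjusted p = 0.880) on the log2 scale.  Its protein acts as a pair with that of Elmo1; the difference between the 2 genes was not tested.

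Per length, Elmo1 was the most abundant member, with a median of 37.4 TPM over the 14 libraries and the first place in 11 of them. Stab1 (median 20.4 TPM), Mertk (19.0 TPM), Pros1 (14.6 TPM), Axl (11.2 TPM), Dock2 (10.1 TPM) and Gas6 (9.62 TPM) followed, then Mfge8 (2.20 TPM), Cd36 (0.534 TPM) and Timd4 (0 TPM). Neighbours in the middle of this order did not keep their places: Stab1 exceeded Mertk in 10 of 14 libraries, in 0 of 3 APOE4 microbead, 2 of 3 APOE3 microbead and all 8 sham libraries. In CPM the group means of Mertk, 266 to 315, were above those of Stab1, 135 to 201. The TPM order rests on the models to which reads were assigned, because TPM divides by their length. For Stab1, 68.7% of reads were assigned to retained-intron models. Axl spanned 2.60 to 44.7 TPM, and took the first place in 1 library, the second of APOE3 microbead. Dock2 exceeded Axl in all 8 sham libraries and in none of the 6 microbead libraries.

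The members also differed in which transcript models held their reads, as the deposited transcript-level estimates assign them. Axl-201, the 20-exon coding model, held 93.9% of Axl reads, and a single coding model held 99.8% of Mertk, 100% of Gas6 and 98.1% of Pros1 reads. Of Stab1 reads, 68.7% were assigned to models annotated as retained intron, 33.8% to Stab1-205 alone, and 30.1% to the 69-exon coding model. For Dock2, 36.4% of reads were on retained-intron models, 31.3% on Dock2-206. Elmo1 reads were spread over the 22-exon Elmo1-201 (45.3%), the shorter coding Elmo1-202 (23.8%), and the retained-intron models Elmo1-203 (10.4%) and Elmo1-204 (10.3%). Elmo1-202 held 34.2% of the Elmo1 reads summed over the APOE4 microbead libraries and 19.1% over the APOE3 microbead libraries, against 18.3% over the APOE4 sham and 24.2% over the APOE3 sham libraries, with no test. With length offsets, which take such shifts into account, the APOE3 difference of Elmo1 was -0.54 (adjusted p = 0.369). Exons of Stab1, Elmo1, Dock2 and Gas6 overlap genes on the opposite strand over 1.09%, 3.2%, 4.03% and 1.33% of their bases, and the standard method does not keep strand, so those few bases cannot be assigned.

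**Figure D5:**
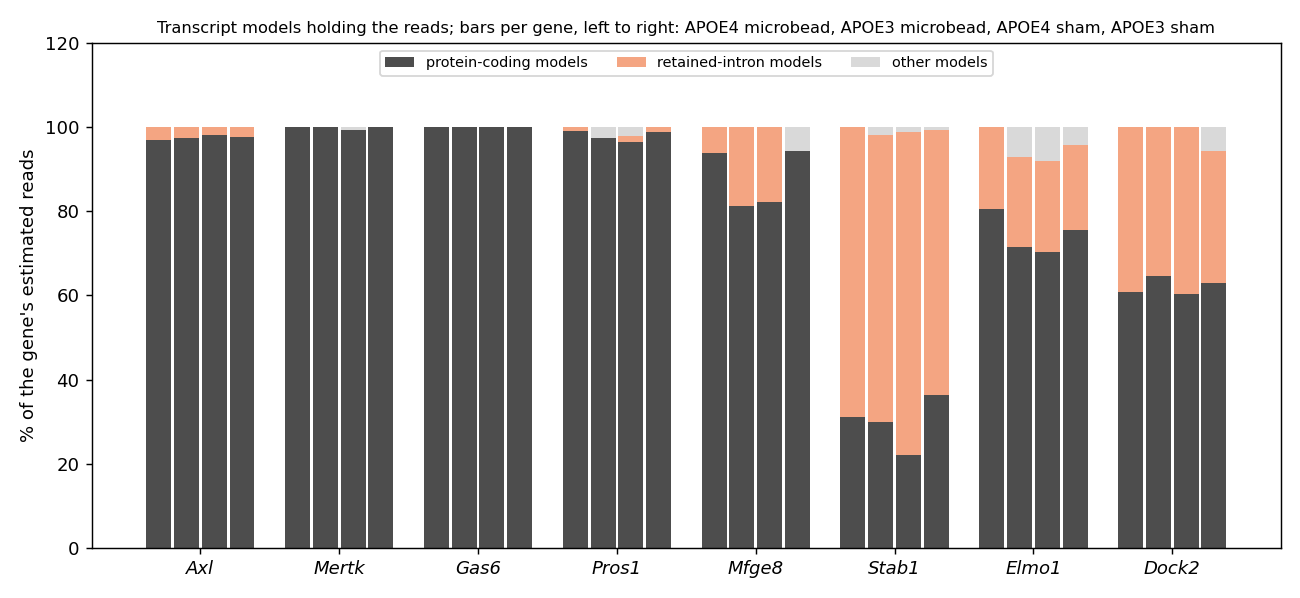
Share of each tested member's estimated reads (vertical axis, percent) on protein-coding, retained-intron and other transcript models; bars per gene run APOE4 microbead, APOE3 microbead, APOE4 sham, APOE3 sham. Retained-intron models hold 68.7% of Stab1 and 36.4% of Dock2 reads over all libraries, and almost none of Mertk, Gas6 or Pros1.

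Other receptors for dying cells gave calls in both genotypes. Over all 7605 genes, 0.197% were called in APOE4 and 5.15% in APOE3, shares to set beside the counts of this and the following lists. Of 25 listed receptors 14 were tested, and 2 rose in each genotype after microbeads: Cd300lf, a phosphatidylserine receptor of myeloid cells, and Itgam, the complement receptor chain CD11b used for the sort. Cd300lf was at 58.4 ± 19.3 CPM in APOE4 microbead and 135 ± 25.4 CPM in APOE3 microbead libraries, against 15.9 ± 5.65 CPM in APOE4 sham and 18.8 ± 11.4 CPM in APOE3 sham libraries (SD, n = 3 and 4). Its log2 difference was 1.87 ± 0.37 in APOE4 (adjusted p = 0.0273, lost in 13 of 28 alternatives) and 2.85 ± 0.34 in APOE3 (adjusted p = 4.59e-06, lost in 2). Itgam differed by 1.01 ± 0.22 in APOE4 (adjusted p = 0.0466) and 0.74 ± 0.22 in APOE3 (adjusted p = 0.0442), calls lost in 16 of 28 alternatives in APOE4 and 21 of 28 in APOE3. The median over the 14 was 0.10 in APOE4 and -0.23 in APOE3.

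Opsonins and other bridging proteins (16 listed, 10 tested) had 1 call in APOE4 and 4 calls in APOE3, all upward, with medians of 0.22 in APOE4 and 0.67 in APOE3. Complement C4b, which can share reads with its near-copy C4a, rose in both, at 248 ± 98.7 CPM in APOE4 microbead and 542 ± 70.6 CPM in APOE3 microbead libraries against 10.6 ± 6.13 CPM in APOE4 sham and 20.6 ± 13.5 CPM in APOE3 sham libraries (adjusted p = 0.000195 in APOE4 and 5.05e-06 in APOE3). In APOE3, complement C3 rose by 4.00 ± 0.80 (adjusted p = 0.00196), Lgals3, a galectin that has been described as a Mertk ligand, by 4.01 ± 0.73 (adjusted p = 0.00694) and the phosphatidylserine binder Anxa5 by 1.36 ± 0.34 (adjusted p = 0.0143) on the log2 scale. The Anxa5 call was lost in 11 of 28 alternatives and changed sign in 1. Lgals3 was at 12.3 ± 10.3 CPM in APOE4 microbead and 187 ± 46.5 CPM in APOE3 microbead libraries, and APOE4 minus APOE3 was -3.88 ± 0.81 (adjusted p = 0.0770). With the monocyte covariate no receptor or bridging gene was called in APOE3, where that fit called 0 of all 7605 genes. The fit without both APOE3 microbead libraries rich in monocyte markers left a lone library in that group, so its calls are not counted here.

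Of the signalling genes that carry engulfment to actin (21 listed, 18 tested), none was called in APOE4 and 2 were in APOE3. Cyfip1, a part of the WAVE complex that Rac activates, fell, with a log2 fold change of -0.82 ± 0.19 (adjusted p = 0.00622), and the blood-cell GTPase Rac2 rose by 0.98 ± 0.26 (adjusted p = 0.0211). The median was -0.15 in APOE4 and -0.07 in APOE3. Genes of digestion and lipid export after uptake (19 listed, 15 tested) had 0 calls in APOE4 and 3 in APOE3, with medians of 0.41 in APOE4 and 0.44 in APOE3: the cholesterol exporter Abca1 rose by 1.37 ± 0.30 (adjusted p = 0.00500), the haem-degrading enzyme gene Hmox1 by 1.43 ± 0.38 (adjusted p = 0.0228) and the lysosomal membrane gene Lamp1 by 0.91 ± 0.27 (adjusted p = 0.0470). The calls of Lamp1 were lost in 21 of 28 alternatives, those of Rac2 in 13, Hmox1 in 12 of 25, Cyfip1 in 7 and Abca1 in 5 of 26. In APOE4 the Abca1 difference was 1.00 ± 0.31 (adjusted p = 0.270). Genes of TAM ligand maturation, receptor shedding and TAM feedback (16 listed, 11 tested) had no call in either genotype. The fit without both APOE3 microbead libraries rich in monocyte markers left a lone library in that group, so its calls are not counted for these lists.

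Interferon-response genes had 2 calls of 23 tested in APOE4 and 8 calls in APOE3, all upward, with medians of 1.39 in APOE4 and 2.06 in APOE3; Irf7, the factor that amplifies the response, was called in both, at 2.33 ± 0.44 (adjusted p = 0.0359) in APOE4 and 2.63 ± 0.50 (adjusted p = 0.00297) in APOE3. The Irf7 call was lost in 12 of 28 alternatives in APOE4 and in 5 in APOE3, and that of Oas2, an antiviral enzyme gene and the other call in APOE4, in 12 of 26 in APOE4 and in 6 in APOE3. In the interaction, and in APOE4 against APOE3 after microbeads or in shams, edgeR called 0 genes of these 6 lists.

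The genes whose log2 CPM ran most like each member over the 14 libraries are a description, since the libraries are shared by all genes and the treatment groups alone can align them. Axl ran with Npc2 (Pearson r = 0.93), which carries cholesterol out of lysosomes, Atp6v0c (0.93), a subunit of the lysosomal proton pump, and Cd72 (0.92), a surface receptor. Mertk ran with Cdc16 (0.92), Ptrh2 (0.84) and the glutamate transporter gene Slc1a3 (0.82), Gas6 with Parp8 (0.79), Tmem91 (0.78) and Selenop (0.78), and Pros1 with Wsb1 (0.91) and Parvg (0.89). Stab1 ran with Hp1bp3 (0.87), Srsf6 (0.83) and Trim36 (0.82), Elmo1 with Git2 (0.92), Lair1 (0.87) and Arsb (0.87), and Dock2 with Ccar1 (0.85), Tlr9 (0.83) and Arhgap25 (0.83). Mfge8, at 3 to 15 reads a library, ran with Grpel2 (0.86), Bud23 (0.85) and Dgka (0.84).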

How the data were processed

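Microglial RNA from 14 retinas was analysed in 4 groups. The submitters' processing notes name Salmon 1.4.0, R 4.0.3 and DESeq2 1.30.1, and mm10 as the build. The deposited per-library files hold estimated counts and TPM per transcript, and the authors' series table holds TPM per gene; deposited effective lengths fed the length offsets. Each column of the TPM table matched its own library's file for 99.2% to 99.4% of genes within 1% and any other library's for at most 2.11%. Estimated counts of 115945 of 116945 transcripts were summed over 35449 genes (GENCODE M21) and rounded; the rest held at most 0.497% of a library's reads.

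Genes were filtered by filterByExpr (minimum count 10, minimum total 15), which left 7605, and tested two-sided with edgeR 4.0.16 quasi-likelihood F tests (TMM scaling, 4 group means, all 14 libraries, R 4.3.3), p-values being adjusted by Benjamini and Hochberg across the 7605 genes and called under 0.05. A standard error is the fold change divided by the root of F. The 28 alternatives used DESeq2 1.42.0, limma 3.58.1, other scalings, filters, only the libraries compared, a replicate block and each library left out. The deposited TPM were also used (limma, log2 of TPM plus 1 or 0.1, with a mean of at least 5 TPM unless unfiltered). The monocyte covariate and the fit without both monocyte-rich APOE3 microbead libraries also count among the 28. Those fits were not planned. The edgeR fit was first tested on simulated data.

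Members and lists were chosen with earlier results of these data known. Named are all members, up to 4 called genes per list and comparison with the smallest adjusted p, the 2 smallest p-values where fewer were called (not all printed), and the 3 genes most correlated with each member; some results under this rule are not reported here. Tyro3, Lgals3 between genotypes, Rpe65 and the monocyte genes are named outside that rule, after their values were seen. Motif letters are consensus strings.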

Additional observations from a re-analysis of the deposited data

Results flagged for a closer look

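In APOE3 sham libraries, Gas6 stood at 122 CPM in the fourth library, far above the other 3 for a group of this size. Mfge8 stood at 8.79 CPM in the second APOE3 sham library, far below the other 3. Timd4 stood at 1.66 CPM in the second APOE4 sham library, a single read where the other 3 had none. These are 3 of 20 groups of 4 examined. Chance sets a library apart in about 1 in 20 groups of continuous values; that rate does not hold for Timd4, where any read beside 3 libraries at 0 stands apart.

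On the CPM scale the microbead effect on Pros1 had opposite signs in the genotypes. Every APOE4 microbead library was above its shams and every APOE3 microbead library below its own. The difference of the effects was 1.04 on the log2 scale and did not pass edgeR's test (adjusted p = 0.212). On the TPM scale mean Pros1 was lower after microbeads in both genotypes, at 14.7 against 16.9 TPM in APOE4 and 12.8 against 19.1 TPM in APOE3. The APOE4 difference changed sign in 3 of 28 alternatives.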

How the results depend on the processing

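Over 28 alternatives, the 40 differences of the tested members gave 1093 values. None of those called in either fit changed sign. Of the values, 962 were called in both fits, at any distance, or in neither and stayed within the standard error. A further 106 moved beyond it without a call (67 of them with deposited TPM), 17 lost a call and 8 gained one. Members called in APOE3, microbead against sham, numbered 2; they were 0 with TPM and a pseudocount of 0.1 or no filter and with the monocyte covariate, and 1 with TPM and a pseudocount of 1, length offsets, library totals, no filter, only the libraries compared, or without both monocyte-rich libraries. Leaving out 1 library gave 1 to 2. In the interaction 0 members were called, against 2 with DESeq2 (68 of 1407 genes called). It was 1 with a minimum count of 20 (10 of 4314 genes) and 1 with no filter (29 of 28158 genes). Leaving out 1 library gave 0 to 1, the 1 being Axl without APOE3 microbead library 3 (adjusted p = 0.0174) or APOE3 sham library 4 (adjusted p = 0.0154). Axl lost its APOE3 call with TPM and a pseudocount of 0.1 (adjusted p = 0.0552) or no filter (adjusted p = 0.319) and with the covariate (adjusted p = 0.701). Pros1 was called in APOE3 with DESeq2 (adjusted p = 0.0493) and a minimum count of 20 (adjusted p = 0.0337). The other 3 comparisons called 0 members throughout. The causes were not tested.

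Over all genes and alternatives, calls in APOE3 numbered 392 (0 to 478), in APOE4 15 (0 to 53), in the interaction 7 (0 to 68), between genotypes after microbeads 44 (1 to 121) and in shams 1 (0 to 12). In APOE3 they were 0 with the covariate, 12 to 28 with TPM, 37 without both monocyte-rich libraries and 225 without APOE3 microbead library 2 alone. In APOE4 they were 2 when any 1 of APOE4 microbead libraries 2 and 3 or APOE4 sham libraries 3 and 4 was left out, and 6 without APOE4 sham library 2. With library totals in place of TMM, the median gene shifted by -0.227 (log2) in APOE4, -0.214 in the interaction and 0.165 between the shams.

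Replicate numbers pair no animals in the labels, and deviations of same-numbered libraries correlated between -0.144 and 0.0985. With the replicate block, members called in APOE3 were 1, and genes called over all were 293. Depth limits Mfge8, Timd4 and Cd36.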

Other observations

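Among genes of the uptake lists that did not pass edgeR's test, Tyrobp, the adaptor through which Trem2 and related receptors signal, had small p-values in several comparisons. It was at 597 ± 34.2 CPM in APOE4 microbead and 728 ± 35.96 CPM in APOE3 microbead libraries (SD, n = 3 each), against 957 ± 66.3 CPM in APOE4 sham and 568 ± 73.1 CPM in APOE3 sham libraries (SD, n = 4 each). All 4 APOE4 sham libraries, at 880.4 to 1042 CPM, were above all 4 APOE3 sham libraries, at 496 to 669 CPM, and the log2 difference of APOE4 over APOE3 was 0.75 ± 0.15 (adjusted p = 0.152). Microbead against sham gave -0.68 ± 0.17 in APOE4 (adjusted p = 0.102), and the interaction, APOE4 less APOE3, was -1.04 ± 0.24 (adjusted p = 0.0773). The cholesterol exporter Abcg1 had a log2 difference of 1.39 ± 0.42 in APOE4, microbead against sham (adjusted p = 0.264). The integrin chain Itgb3, a partner of the Mfge8 bridge, differed by 1.11 ± 0.35 in APOE4 against APOE3 after microbeads (adjusted p = 0.176).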
